A study of Mus musculus with 16 samples.

Results

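Osteoclasts are the bone-resorbing cells of the macrophage lineage. They form when precursors receive signals from CSF1 and RANK ligand, fuse through surface proteins such as DC-STAMP and OC-STAMP, and then acidify a sealed space with a proton pump (V-ATPase) and digest bone matrix with secreted enzymes. Macrophages in other tissues can use parts of this program, and in fat some of its genes are known from macrophages that take up lipid. The genes described here are 8 members of that program. Atp6v0d2 encodes the d2 subunit of the V-ATPase and takes part in fusion. Ctsk (cathepsin K) and Acp5 (tartrate-resistant acid phosphatase) are resorption enzymes. Dcstamp and Ocstamp encode the fusion proteins named above, Oscar encodes an activating receptor, and Nfatc1 and Mitf encode transcription factors.

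The 8 genes were picked because the level of Atp6v0d2 was far higher in fat of obese mice, so the obese against lean values of the members are given as a description, without a test. Of 130343 transcript entries in the table, 41 belonged to these genes. Only 14 of the 41 had any count, and 5 passed the filter on low values (above 1 CPM, a count scaled to the size of its library, in at least 3 of 16 libraries), which left 13288 entries to test. Those 5 were both entries of Atp6v0d2, 2 of 7 entries of Acp5 and the only entry of Ctsk. The second Acp5 entry passed only because its obese VAT libraries were above 1 CPM, so its values, like those of Atp6v0d2, are described without a test in every comparison. Dcstamp, Ocstamp, Oscar, Mitf and Nfatc1 had no tested entry.

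RNA was sequenced from subcutaneous adipose tissue (SAT, both inguinal depots of a mouse combined) and visceral adipose tissue (VAT, the mesenteric depot) of wild-type male C57BL/6J mice. From 10 weeks of age, for 12 to 14 months, 4 obese mice ate a high-fat diet with 42% of its energy from fat and 0.2% cholesterol, and 4 lean mice ate normal laboratory diet. Each mouse gave 1 library per tissue, which made 4 groups of 4 libraries, and p-values measure the spread between these mice. Whole fat was sequenced after visible vessels had been removed, so that fewer cells of a type and less RNA per cell cannot be told apart. The 8 adipocyte markers all had counts and summed to between 15521 and 58206 CPM per library.

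Total counts per library ran from 1256082 to 16614407. The shallowest libraries were VAT of lean mouse 1 and VAT of obese mouse 1. A count of 0 allows up to 3 counts, which corresponded to between 0.179 and 1.92 CPM after scaling, with the highest level in the shallowest library, for counting error only. VAT of obese mouse 4 stood apart for Ctsk and Atp6v0d2 and is followed by name throughout. Levels are CPM scaled by the trimmed mean of M values (TMM), and log2 differences come from edgeR's quasi-likelihood fit with their standard errors (SE).

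Where members lie was read from the GRCm39 build. All 8 are protein-coding genes. Atp6v0d2 occupied chr4:19876838-19922614 on the minus strand, Ctsk chr3:95406178-95416732 on the plus strand and Acp5 chr9:22038023-22049355 on the minus strand. Promoter windows of 300 bases, 250 before a transcription start and 50 after it, were held in RefSeq (GRCm38.p6) for 4 of 8 members, with 8 windows in all. Each window matched GRCm39 once. A window of each resorption enzyme is shown because the enzymes were the only members besides Atp6v0d2 with entries past the filter. Acp5 had several windows, and only the one with an E-box match is shown. Capitals mark matches to 4 motifs searched on both strands: an E-box of the MITF family (CACGTG or CATGTG), an AP-1 site (TGANTCA), an NFAT core (GGAAAA) and a PU.1 site (GAGGAAG).
Ctsk, chr3:95406271-95406570, plus strand: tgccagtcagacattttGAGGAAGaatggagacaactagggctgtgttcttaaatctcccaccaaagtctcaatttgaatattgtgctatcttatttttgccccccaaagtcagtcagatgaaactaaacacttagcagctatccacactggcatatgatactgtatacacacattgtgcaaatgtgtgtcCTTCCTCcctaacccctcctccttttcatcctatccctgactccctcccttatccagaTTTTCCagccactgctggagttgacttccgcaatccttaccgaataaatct
Acp5, chr9:22041845-22042144, minus strand: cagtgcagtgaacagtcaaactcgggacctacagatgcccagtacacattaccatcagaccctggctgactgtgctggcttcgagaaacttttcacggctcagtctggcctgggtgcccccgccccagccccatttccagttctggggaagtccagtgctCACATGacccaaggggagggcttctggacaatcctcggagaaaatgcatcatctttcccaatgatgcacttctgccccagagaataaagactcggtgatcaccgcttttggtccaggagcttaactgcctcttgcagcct
The Ctsk window held PU.1 matches at bases 18 and 192 and an NFAT match at base 250, counted from its 5′ end, and no marked matches overlapped. The Acp5 window held an E-box match at base 161. Of the other Acp5 windows, 1 held an NFAT match and 1 held no match. The Oscar window held an E-box match, 2 NFAT matches and a PU.1 match, and the 3 Mitf windows held none. Among 32851 windows of the same length, 20.4% held the E-box, 7.81% the AP-1 site, 23.4% the NFAT core and 13.6% the PU.1 site. A match describes letters in a window and is not a site.

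Atp6v0d2 was higher in obese than in lean mice in both tissues, and far more so in VAT. The table splits the gene into a curated transcript (NM_175406) and a predicted one (XM_017320194). In SAT, the curated transcript was at 1.82, 0.704, 1.52 and 2.34 CPM in the lean libraries and at 8.62, 8.79, 13.5 and 10.9 CPM in the obese libraries. In VAT it was at 0, 0.598, 1.07 and 0.663 CPM in lean and at 19.5, 23.4, 18.1 and 55.8 CPM in obese mice. Every obese library lay above every lean library of its tissue, and obese mouse 4 was the highest in VAT. The library at 0 was also the shallowest. The log2 difference was 2.73 (SE 0.37) in SAT and 5.36 (SE 0.43) in VAT, or 6.63-fold and 41.1-fold.

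The predicted transcript of Atp6v0d2 had smaller differences between diets. It was at 2.64, 1.27, 1.33 and 0.851 CPM in lean SAT and at 3.46, 2.86, 4.62 and 2.70 CPM in obese SAT. In VAT it was at 0.641, 1.62, 2.25 and 2.43 CPM in lean and at 4.98, 4.21, 4.50 and 5.31 CPM in obese mice. Groups again did not overlap in either tissue, but the lowest obese SAT library exceeded the highest lean one only narrowly. Its log2 difference was 1.07 (SE 0.32) in SAT and 1.28 (SE 0.32) in VAT. Summed over both transcripts, the gene had a log2 difference of 2.09 in SAT and 3.68 in VAT, so that the size of the Atp6v0d2 response depended on the transcript that was read.

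**Figure D1:**
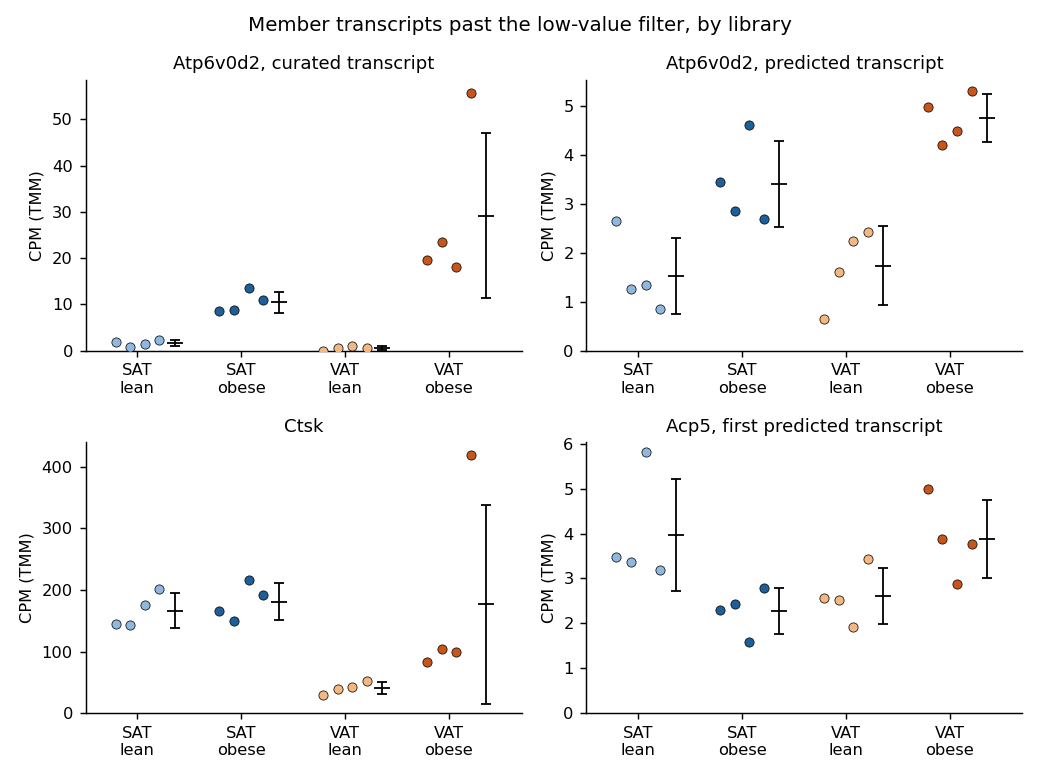
Level (CPM, linear axis from 0) of 4 of the 5 member transcripts that passed the filter in the 4 libraries of each group. Points are libraries in the order of replicates 1 to 4 and bars give mean ± SD. The curated Atp6v0d2 transcript averaged 29.2 ± 17.8 CPM in obese VAT against 0.583 ± 0.442 CPM in lean VAT, and 1 obese VAT library stood far above the other 3 for Ctsk.

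The split of Atp6v0d2 counts between its transcripts therefore differed between groups. In lean VAT the curated transcript took 0 of 1 count in mouse 1 and 27.0%, 32.3% and 21.4% of the gene's counts in mice 2 to 4. In obese VAT it took 79.7%, 84.8%, 80.1% and 91.3%. In SAT its share was 40.7%, 35.7%, 53.3% and 73.3% in lean and 71.3%, 75.5%, 74.4% and 80.1% in obese mice. The VAT groups were separate in share, whereas 1 lean SAT library lay inside the range of the obese ones. The gene's counts behind these shares totalled 113 in lean SAT, 705 in obese SAT, 97 in lean VAT and 1348 in obese VAT. How the counter assigned reads that fit both transcripts is not given in the sources used here, and its part in the shares was not tested.

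**Figure D2:**
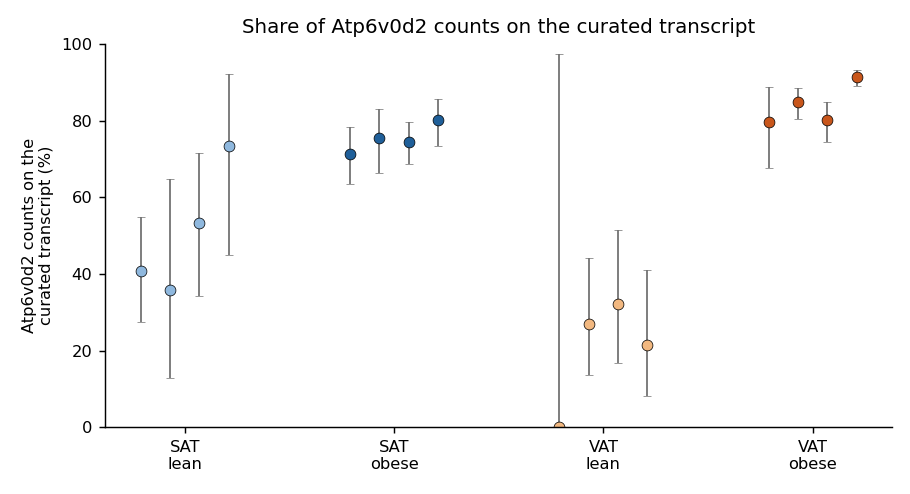
Share of the Atp6v0d2 counts of each library that lay on the curated transcript (percent), with exact 95% binomial intervals that cover counting error only. Obese VAT lay between 79.7% and 91.3%, and the 3 lean VAT libraries with more than 1 count between 21.4% and 32.3%.

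Ctsk was abundant in SAT of both diets and low in VAT of lean mice. In SAT it was at 145, 144, 176 and 202 CPM in lean and at 166, 150, 217 and 192 CPM in obese mice, and the groups overlapped. In VAT it was at 29.5, 40.1, 42.0 and 53.4 CPM in lean and at 83.6, 104, 100 and 419 CPM in obese mice. All 4 obese VAT libraries lay above the lean ones, and mouse 4 lay far above the other 3. The log2 difference between diets was 0.12 (SE 0.33) in SAT and 2.08 (SE 0.36) in VAT. Without obese mouse 4 the VAT difference was 1.19, so this library set much of its size.

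The first Acp5 transcript (XM_006509944) was lower in obese than in lean SAT. It was at 3.47, 3.38, 5.81 and 3.19 CPM in lean SAT and at 2.31, 2.44, 1.59 and 2.78 CPM in obese SAT, with every obese library below every lean one. In VAT it was at 2.56, 2.51, 1.93 and 3.42 CPM in lean and at 4.98, 3.88, 2.87 and 3.77 CPM in obese mice, and the groups overlapped. The log2 difference was -0.83 (SE 0.28) in SAT and 0.52 (SE 0.29) in VAT. The second transcript (XM_006509946) was below 1 CPM in every SAT library and between 0.990 and 1.54 CPM in obese VAT. In lean VAT it was at 3.20 CPM in mouse 1, the shallowest library, and between 0.221 and 0.643 CPM in the other 3, and its log2 difference was -1.63 (SE 0.85) in SAT and 0.87 (SE 0.67) in VAT. Without single mice these ran from -2.83 to -1.33 and from 0.46 to 1.41. Summed over all its transcripts, Acp5 averaged 4.96 ± 0.861 CPM in lean SAT, 2.83 ± 0.607 CPM in obese SAT, 4.37 ± 1.11 CPM in lean VAT and 5.30 ± 0.78 CPM in obese VAT (SD, n = 4 each).

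All obese libraries lay above all lean ones for 2 of the 5 member transcripts in SAT, both of Atp6v0d2, and for 3 of 5 in VAT, the same 2 and Ctsk, beside 9.61% and 8.36% of all transcripts. The reverse separation held for 1 of 5 in SAT, beside 7.64%. Because the members were picked on these contrasts, nothing is read from their counts.

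The tissues were then compared within mice. Atp6v0d2 chose the members and is described without a test, and Ctsk and the first Acp5 transcript were tested. In lean mice, Ctsk was 4.02-fold lower in VAT than in SAT, with a log2 difference of -2.01 (SE 0.23, adjusted p = 1.41e-06 by edgeR's quasi-likelihood test), and it was lower in 4 of 4 mice. The first Acp5 transcript had a log2 difference of -0.63 (SE 0.32) and did not pass (adjusted p = 0.215 by edgeR). Thus 1 of 2 passed in lean mice, where 14.8% of all transcripts passed in either direction and 6.84% were lower in VAT. The curated Atp6v0d2 transcript had a log2 difference of -1.0 (SE 0.49) and the predicted one of 0.43 (SE 0.40). The curated transcript was the lower in VAT in each lean mouse, but mouse 1 had no count in VAT, where 3 counts would be 1.92 CPM against its 1.82 CPM in SAT. The second Acp5 transcript had a log2 difference of 0.82 (SE 0.81), which ran from 0.06 to 1.60 without single mice and was lowest without lean mouse 1. Without single mice, the differences ran from -1.29 to -0.68 for the curated and from 0.16 to 0.79 for the predicted Atp6v0d2 transcript, and from -0.88 to -0.23 for the first Acp5 transcript.

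In obese mice the curated Atp6v0d2 transcript was higher in VAT than in SAT in 4 of 4 mice, by 1.36 (SE 0.25) on the log2 scale, the opposite order to its lean average. The predicted transcript was higher in VAT in 3 of 4 obese mice, by 0.49 (SE 0.31), the same direction as in lean mice. Ctsk averaged 181 ± 29.7 CPM in obese SAT and 177 ± 162 CPM in obese VAT (SD, n = 4 each), with a log2 difference of -0.38 (SE 0.23, adjusted p = 0.227 by edgeR). It was higher in VAT only in mouse 4. Without that mouse the log2 difference was -0.87 (adjusted p = 1.13e-04 by edgeR), so the call for Ctsk in obese mice turned on 1 animal. The first Acp5 transcript was higher in VAT in 4 of 4 obese mice, by 0.74 (SE 0.30, adjusted p = 0.0691 by edgeR). Thus 0 of 2 tested transcripts passed by edgeR, with 1, that of Acp5, at an unadjusted p below 0.05, and 0 by DESeq2, beside 15.9% of all transcripts higher and 13.5% lower. The second Acp5 transcript had 7 counts in obese SAT and 46 in obese VAT over the group and a log2 difference of 3.33 (SE 0.82), which ran from 3.06 to 4.29 without single mice. Summed over all its transcripts, Acp5 was higher in obese VAT than in obese SAT by 0.92 (adjusted p = 0.00877 by edgeR). That sum takes every entry whether or not it passed the filter, and the second transcript averaged 0.133 CPM of it in obese SAT and 1.23 CPM in obese VAT.

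The diet response itself was larger in VAT than in SAT for Ctsk. The difference of the responses was 1.63 (SE 0.32) on the log2 scale and passed the test (adjusted p = 0.00677 by edgeR). Without obese mouse 4 it was 1.13 (adjusted p = 0.00255 by edgeR), and without the mouse block it was 1.96 (adjusted p = 0.0501 by edgeR), which no longer passed. The first Acp5 transcript had a difference of 1.37 (SE 0.44, adjusted p = 0.112 by edgeR). Ctsk was thus the 1 of 2 tested transcripts that passed, beside 0.880% of all transcripts with a positive and 1.29% with a negative difference. Without a test, the difference was 2.36 (SE 0.55) for the curated and 0.06 (SE 0.53) for the predicted Atp6v0d2 transcript and 2.51 (SE 1.17) for the second Acp5 transcript. Without single mice these ran from 2.00 to 2.69, from -0.32 to 0.31 and from 1.71 to 3.46 in the same order.

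The fusion gene Ocstamp, which has a single transcript entry, was seen in few reads. Its counts were 4, 0, 2 and 2 in lean SAT, 9, 7, 8 and 8 in obese SAT, 0, 5, 5 and 2 in lean VAT and 0, 10, 8 and 8 in obese VAT. In CPM, the obese SAT libraries lay between 0.552 and 0.742 and the lean ones between 0 and 0.425. The 3 deeper obese VAT libraries lay between 0.685 and 0.825 CPM and the 3 deeper lean ones between 0.221 and 0.536 CPM. Both shallow VAT libraries had no Ocstamp count, which their depth cannot tell from the levels of the others. Ocstamp did not exceed 1 CPM in any library and was not tested.

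**Figure D3:**
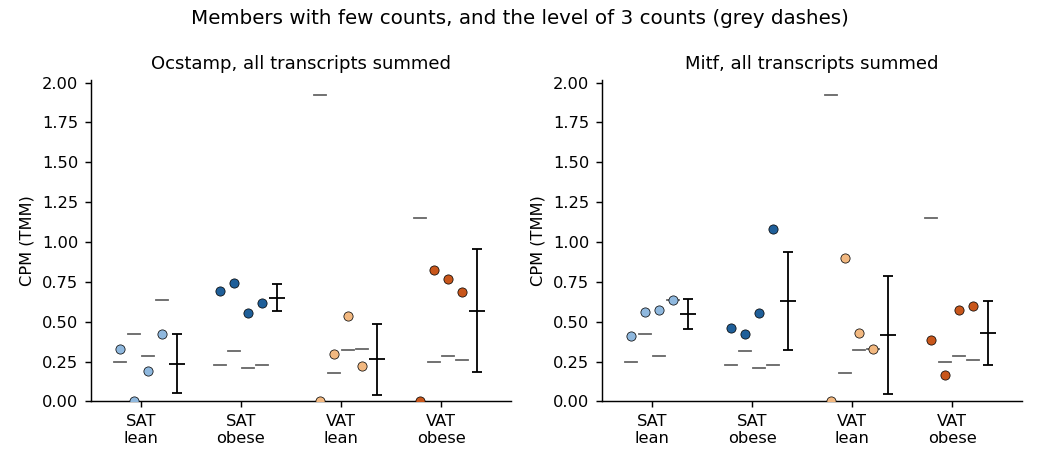
Level (CPM, linear axis from 0) of Ocstamp and of Mitf, each summed over its transcripts, in the 4 libraries of each group, with mean ± SD. Grey dashes give the level of 3 counts in each library, which reached 1.92 CPM in the shallowest; Ocstamp lay between 0.552 and 0.742 CPM in obese SAT and between 0 and 0.425 CPM in lean SAT.

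Mitf, a regulator of osteoclast enzymes and of melanocytes, had 88 counts in all on 3 of 16 transcript entries, with 18 in lean SAT, 32 in obese SAT, 22 in lean VAT and 16 in obese VAT. Its summed level lay between 0 and 1.08 CPM, and the groups overlapped. Dcstamp had 9 counts on 2 of 6 entries and Oscar had 1 count on 1 of 2. Nfatc1, the main switch of osteoclast formation, was listed at 0 on all 6 entries in every library. How reads that fit several transcripts were counted is not given in the sources used here, so these counts are not read as low expression. Among the protein-coding genes of the table, 34.8% of those with 1 entry and 20.3% of those with 6 or more entries had no count.

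Upstream of the members stand the ligands and receptors that start osteoclast formation, on lists that, unlike the members, are tested for diet. Transcripts that passed the filter on low values only with the libraries of a given group counted were selected for a difference, so 13 such transcripts of the pathway lists are not tested and 74 are. That rule leaves out 1 group at a time. A transcript above 1 CPM only in obese libraries of both tissues could therefore still be tested. Of the 74 tested, 17 rose in SAT and 21 in VAT and none fell by edgeR. Beside this, 6.20% of all transcripts were higher and 4.85% lower in SAT, and 6.82% higher and 4.09% lower in VAT. The lists were chosen with earlier results of these data known, so the choice may have raised these counts, which are given as a description. Without lean mouse 2 or 3 the SAT count was 7 or 10, and without obese mouse 4 the VAT count was 14. Of 3 tested transcripts of RANK ligand, CSF1 and their receptors, 1 rose in each tissue, that of Csf1r, the CSF1 receptor. In VAT, 2 passed without obese mouse 1 or 3, and all 3 passed without the 2 shallowest libraries, an alternative chosen after seeing the data. Csf1r went from 259 ± 22.9 to 455 ± 82.2 CPM in SAT and from 439 ± 32.0 to 827 ± 113 CPM in VAT, with log2 differences of 0.81 (SE 0.13) and 0.91 (SE 0.13). Tnfsf11 (RANK ligand) averaged 0.380 and 0.163 CPM in lean and obese SAT and 1.79 and 4.23 CPM in lean and obese VAT. Its diet differences did not pass (adjusted p = 0.462 in SAT and 0.0714 in VAT by edgeR). It was higher in VAT than in SAT by 2.31 (SE 0.53) in lean and 4.30 (SE 0.51) in obese mice on the log2 scale, given without a test because the transcript passed the filter through its VAT libraries. The better counted transcript of Tnfrsf11a (RANK) averaged 1.56 CPM in lean and 3.12 CPM in obese VAT (adjusted p = 0.0866 by edgeR). Tnfrsf11b, the decoy receptor of RANK ligand, had 31 counts in all.

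Both tested co-receptor and adaptor transcripts rose in VAT, Tyrobp, the adaptor of TREM2, by 1.81 (SE 0.20) and Fcer1g, the adaptor that pairs with OSCAR, by 1.39 (SE 0.17) on the log2 scale. Each kept its call without any 1 of the 8 mice. Trem2, a lipid receptor of macrophages, had a log2 difference of 3.62 (SE 0.64) in VAT and passed the filter only through obese VAT, so it carries no test. In SAT only Tyrobp passed, with 0.63 (SE 0.19), and that call was lost without any 1 of 5 mice: lean mice 2 and 3 and obese mice 1, 2 and 3. The response was larger in VAT than in SAT for Tyrobp, by 1.07 (SE 0.25, adjusted p = 0.021 by edgeR), and for Fcer1g, by 0.94 (SE 0.19, adjusted p = 0.00777 by edgeR). Of 5 tested kinase and signal carrier transcripts, Blnk, Syk and Plcg2 rose in VAT by 2.04 (SE 0.32), 1.29 (SE 0.26) and 1.26 (SE 0.26), and these calls also held without any 1 of the 8 mice. Syk and Plcg2 also rose in SAT, by 0.98 (SE 0.27) and 0.98 (SE 0.26), calls lost without some mice (lean 3 and 4 and obese 3 for Syk, lean 2 and obese 1 for Plcg2).

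Of 9 tested transcripts of the program's other transcription factors, none passed in SAT by edgeR (1 at an unadjusted p below 0.05, and 0 by DESeq2), although 1 rose without obese mouse 3. In VAT 1 rose, that of Spi1 (PU.1), by 1.02 (SE 0.28), a call lost without any 1 of 5 mice (lean 2, 3 and 4, obese 1 and 4). The list's median log2 difference was 0.26 in SAT and 0.33 in VAT, beside 0.01 and 0.02 over all transcripts. Among 8 tested transcripts of genes that restrain osteoclast formation, 2 rose in SAT and 3 in VAT. Nfkbia, the NF-κB inhibitor, rose by 0.74 (SE 0.20) in SAT and 1.07 (SE 0.21) in VAT. Id2 rose in VAT by 0.92 (SE 0.16). Of these 3 calls, only that of Nfkbia in SAT depended on single mice (lean 2 and 3, obese 1, 2 and 4). Of 4 tested transcripts of the other NFAT genes and of Rcan1, a calcineurin inhibitor that is itself an NFAT target, 1 of Rcan1 rose by 1.92 (SE 0.49) in SAT and 1.32 (SE 0.43) in VAT. The SAT call was lost without lean mouse 2 or 3, and the VAT call without any 1 of 5 mice (lean 2, 3 and 4, obese 2 and 4) and by DESeq2, which called 0 of the 4 in VAT.

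**Figure D4:**
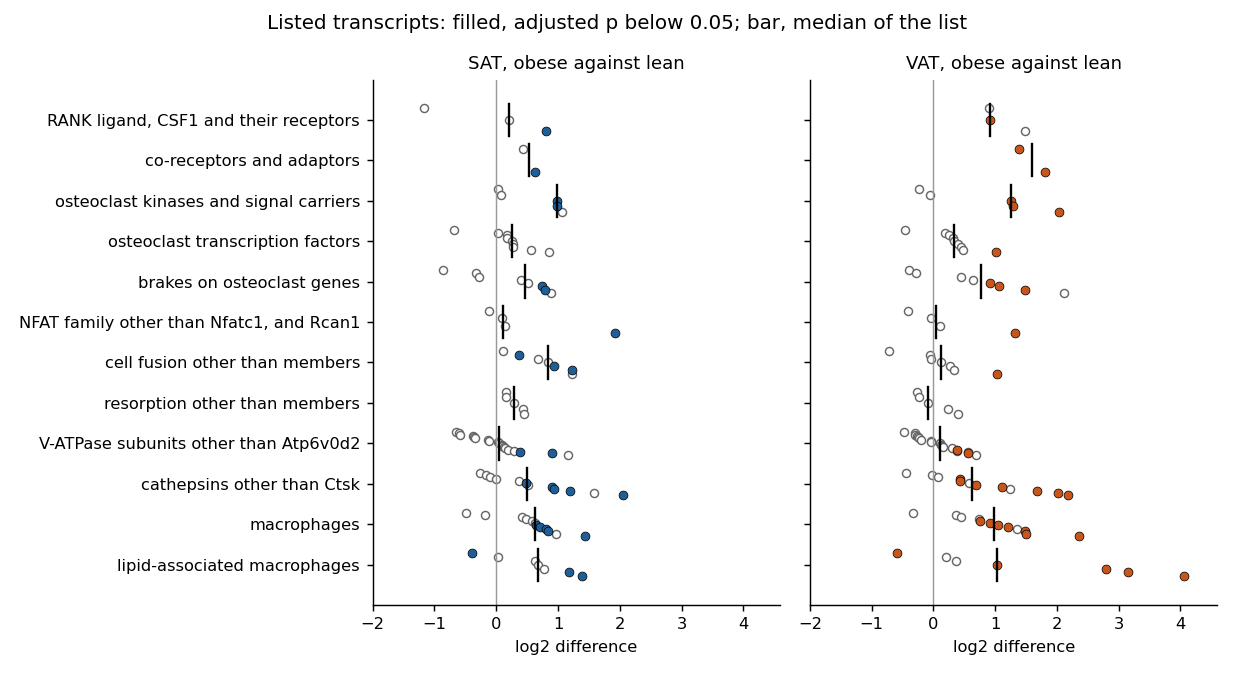
Log2 difference between obese and lean mice for each tested transcript of 12 gene lists, in SAT (left) and VAT (right). Filled points had an adjusted p below 0.05 by edgeR, open points did not, and bars mark the median of a list, such as 0.04 in SAT and 0.11 in VAT for the V-ATPase subunits.

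Other subunits of the pump that Atp6v0d2 belongs to passed the test in few cases. Of 19 tested transcripts of 16 other V-ATPase genes, 2 (10.5%) rose in SAT, with Atp6v1a at 0.90 (SE 0.24) and Atp6v0a2 at 0.38 (SE 0.10), and 2 (10.5%) rose in VAT, with Atp6v1f at 0.57 (SE 0.13) and Atp6ap2 at 0.38 (SE 0.12). None fell by edgeR with all libraries, but in SAT 1 fell by DESeq2, and also by edgeR without obese mouse 4 or without the 2 shallowest libraries. Over all transcripts, 6.20% and 6.82% were higher. The list's median log2 difference was 0.04 in SAT and 0.11 in VAT. Except for Atp6v1f, these calls were lost without single mice (lean 2 or obese 4 for Atp6v1a, lean 2 for Atp6v0a2, any mouse but obese 2 for Atp6ap2). Atp6v0d1, the widely used d subunit on chr8:106251086-106292747, averaged 292 and 300 CPM in lean and obese SAT and 232 and 227 CPM in lean and obese VAT (log2 differences 0.04 and -0.04).

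Of 5 tested transcripts of other resorption genes, 0 passed in SAT and 0 in VAT by edgeR and by DESeq2 (1 in SAT and 2 in VAT at an unadjusted p below 0.05 by edgeR). A Clcn7 transcript of the lysosomal chloride exchanger, at 0.145 CPM in lean and 1.33 CPM in obese VAT, passed the filter only with the obese libraries of both tissues counted and was not tested. Tcirg1, also on the list of pump subunits, was not tested by the same rule. A Tcirg1 transcript at 0.859 CPM in lean and 2.01 CPM in obese VAT had a log2 difference of 1.41 (SE 0.49). Another, at 0.762 and 0.824 CPM, had a log2 difference of 0.39 (SE 0.66). Mmp14 averaged 280 and 371 CPM and Ostm1 128 and 150 CPM in lean and obese VAT, and neither passed. Mmp9 had 228 counts in all, Car2 (carbonic anhydrase II) 19, Itgb3 61 and Calcr, the calcitonin receptor of mature osteoclasts, 1.

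Of 7 tested transcripts of other fusion genes, 3 rose in SAT and 1 in VAT. In SAT these were Myo10 at 1.22 (SE 0.15), Adam12 at 0.93 (SE 0.28) and Cd81 at 0.37 (SE 0.11), and in VAT Cd9 at 1.04 (SE 0.23). The response of Myo10 was smaller in VAT than in SAT by 0.92 (adjusted p = 0.0115 by edgeR) and that of Adam12 by 0.84 (adjusted p = 0.0115 by edgeR), opposite to Ctsk. The calls of Myo10 and Cd9 did not depend on any 1 mouse. Those of Adam12 (lean 1, 2 and 3, obese 1, 2 and 4) and Cd81 (lean 2 and 3, obese 2 and 3) were lost without the mice named.

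Several cathepsins besides Ctsk, the lysosomal proteases of the same family or compartment, rose with diet. Of 12 tested transcripts, 5 rose in SAT and 7 in VAT, and none fell, although without lean mouse 1, 5 rose and 1 fell in VAT. Ctss, of antigen-presenting cells, rose by 1.20 (SE 0.31) in SAT and 2.17 (SE 0.29) in VAT, and Ctse by 2.05 (SE 0.48) and 2.02 (SE 0.36). Ctsl rose by 0.94 (SE 0.28) and 1.12 (SE 0.29), Ctsd by 0.90 (SE 0.14) in SAT and Ctsw by 1.68 (SE 0.47) in VAT. Without obese mouse 4, 3 of 12 passed in VAT, and without obese mouse 3, 2 of 12 passed in SAT. Ctss in SAT was lost without lean mouse 3 or obese mouse 3, Ctsl without lean 1, 2 or 3 or obese 1 or 3 in SAT and without lean 3 or obese 4 in VAT, and Ctsw without lean 3 or 4 or obese 4. Summed over its transcripts, Ctsw averaged 0.349 and 1.20 CPM in lean and obese SAT and 0.896 and 3.03 CPM in lean and obese VAT.

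Macrophage markers rose in part in each tissue. Of 12 tested macrophage transcripts, 5 rose in SAT and 7 in VAT and the others did not pass, and each call held without any 1 of the 8 mice. Cd68, a lysosomal protein of macrophages, went from 37.6 ± 3.77 to 102 ± 13.5 CPM in SAT and from 45.8 ± 4.26 to 236 ± 87.5 CPM in VAT (SD, n = 4 each). Summed over the 13 marker genes, the level ran from 827 to 1160 CPM in lean SAT, 1403 to 1874 CPM in obese SAT, 1481 to 1734 CPM in lean VAT and 2808 to 3724 CPM in obese VAT, where mouse 4 was the highest. Every marker of that list had counts over the 16 libraries together, but Adgre1 had only 12 and Cd163 83, and neither was tested. The part of macrophage RNA in the member values was not tested.

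Of 7 tested transcripts of the lipid-associated macrophage list, 2 rose and 1 fell in SAT, and 4 rose and 1 fell in VAT. The SAT rises were those of Itgax and Lgals3, and that of Lgals3 was lost without lean mouse 2 or 3 or obese mouse 2 or 4. Gpnmb rose in VAT by 4.06 (SE 0.43) from 26.3 to 435 CPM and the tested transcript of Itgax by 3.16 (SE 0.32). Lpl, the lipoprotein lipase that adipocytes also make, fell in both tissues, by 0.40 (SE 0.12) in SAT and 0.59 (SE 0.12) in VAT. Its SAT call was lost without any 1 of 4 mice (lean 2 and 3, obese 2 and 3). Lpl set the sum of the list, 34803 to 48048 CPM in SAT and 16273 to 29015 CPM in VAT. Leaving Lpl out, a choice made after its level was seen, the other 8 genes summed to 230 to 341 CPM in lean SAT, 449 to 510 CPM in obese SAT, 222 to 328 CPM in lean VAT and 636 to 1988 CPM in obese VAT. The value of 1988 CPM belonged to obese mouse 4, also the highest for Atp6v0d2 and Ctsk, and the next VAT library was at 722 CPM.

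Ctsk is also known from fibroblasts and Mitf from melanocytes and mast cells, so markers of these and other cells were read too. None of 9 tested fibroblast transcripts passed in either tissue by edgeR or DESeq2 (1 in SAT and 2 in VAT at an unadjusted p below 0.05 by edgeR), although 2 rose in VAT without lean mouse 4 and 1 fell in SAT without lean mouse 1. Their summed level in obese VAT ran from 7374 to 8954 CPM, highest in mouse 4, beside 5974 to 8761 CPM in lean VAT and 8555 to 14398 CPM in SAT. Bone and osteoblast markers summed to between 1.55 and 10.2 CPM in every library, with Ibsp at 0, and their only tested transcript did not pass. Melanocyte markers summed to between 1.54 and 8.16 CPM, with Tyrp1 at 0, and the only tested transcript, of Dct, fell in VAT. All 3 tested mast cell transcripts rose in VAT, where the sum ran from 16.01 to 31.5 CPM in lean and 24.9 to 104 CPM in obese mice, and none passed in SAT. Of 7 dendritic cell transcripts 2 rose in VAT and none passed in SAT. B cell transcripts rose in 3 of 4 (1 by DESeq2) and the only tested T cell transcript in VAT, and none passed in SAT. In SAT, 3 dendritic, 1 mast, 0 B and 1 T cell transcripts had an unadjusted p below 0.05 by edgeR, and by DESeq2 the T cell transcript passed. Without obese mouse 4, 0 dendritic, 1 B cell and 0 T cell transcripts rose in VAT, and 0, 1 and 0 of these calls held without any 1 of the 8 mice. Of 15 adipocyte transcripts, 7 fell in VAT and none passed in SAT, and without lean mouse 3 or obese mouse 4 the number was 4 or 3. Intestinal markers fell in 1 of 5 tested transcripts in VAT (Muc2), and in 0 without lean mouse 2 or obese mouse 3 or 4. Among those not tested, Fabp2 had 157 counts in lean and 2 in obese VAT, Zg16 135 and 6, and Cdh17 34 and 7. In lean VAT the intestinal sum was 19.9, 69.6, 18.8 and 58.7 CPM in mice 1 to 4. The only tested exocrine pancreas transcript, of Cela1, rose in each tissue. The untested Cpa1, Pnlip, Prss2, Ctrb1 and Try4 had fewer counts in obese than in lean VAT, such as 15 against 46 for Pnlip. No muscle transcript was tested. The part of these cells in the member values was not tested.

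The transcripts whose profile over the 16 libraries was nearest to the curated Atp6v0d2 transcript were looked for among 13286 transcripts of other genes that passed the filter. The profile is the one that chose the members, so a lean-to-obese pattern of its neighbours follows from the search and is given as a description. Likeness was the root mean square difference between log2 CPM profiles after each was centred on its own mean, and all points share the same libraries and depths. The nearest were both transcripts of Tm4sf19, a tetraspanin-like membrane protein, at 0.981 and 0.985, followed by Ucp1, the uncoupling protein of brown fat, at 0.987. Next came Tlr13, an endosomal receptor of bacterial RNA, at 1.03, Capg, an actin-capping protein, at 1.05, the noncoding I730028E13Rik at 1.08, a transcript without a symbol (XM_036160209) at 1.10, Il1rn, the interleukin-1 receptor antagonist, at 1.13, Gm35763 at 1.14 and Vsig8 at 1.15. Of these 10, 6 were above 1 CPM in no lean library, and 4 of them passed the filter only with the obese VAT libraries counted. The median over all was 2.24. The predicted Atp6v0d2 transcript was farther, at 1.57, and Ctsk was at 1.72, rank 240. Tlr13 averaged 8.09 CPM in lean SAT, 34.4 CPM in obese SAT, 9.31 CPM in lean VAT and 88.9 CPM in obese VAT, whereas Gm35763 was at 28.6 CPM in obese SAT and 22.5 CPM in obese VAT. Ucp1 averaged 0.180, 2.57, 0.376 and 10.3 CPM in the same order of groups.

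**Figure D5:**
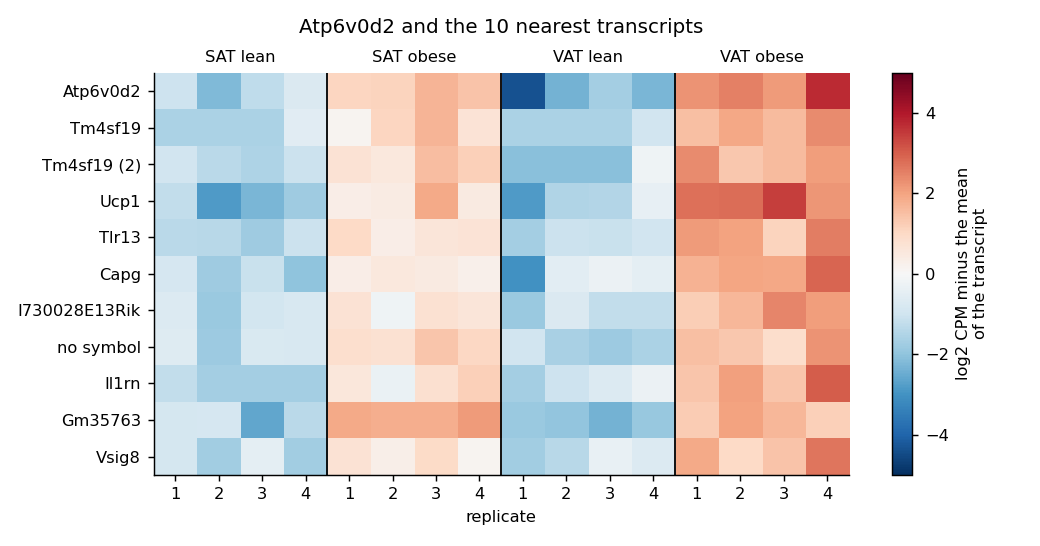
Centred log2 CPM (colour) of the curated Atp6v0d2 transcript (top) and the 10 nearest transcripts in each of the 16 libraries, with columns numbered by replicate within groups. Blue is below and red above the mean of a transcript; every row is mostly blue in lean and red in obese libraries, as the search for this profile fixes, and the distance from Atp6v0d2 grows from 0.981 to 1.15 down the rows.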

How the data were processed

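The members and the gene lists were chosen with earlier results of these data known. The authors deposited 1 table with raw counts and CPM (counts scaled by library size) for each of 16 libraries, made, per the submitters' processing notes, with Trim Galore 0.6.6 (the methods of the study give another version of it), HISAT2 2.2.0 (GRCm39, RefSeq annotation) and HTSeq 0.13.5 from paired-end reads of a directional poly(A) kit. The strand setting and the handling of reads shared by transcripts are not given in the sources used here, so counts of genes with several transcripts, and of genes that overlap others, are uncertain. The deposited CPM equal the counts scaled by library total and were not used further.

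Symbols came from RefSeq by accession (88.8% of tested entries matched). Counts were fitted with edgeR 4.0.16 (TMM, quasi-likelihood F-test, Benjamini-Hochberg adjustment over 13288 entries above 1 CPM in at least 3 of 16 libraries), after a check on simulated data. Diet was tested on group means and tissue with the mouse as a block, since both libraries of a mouse share the animal; the correlation of their deviations ran from -0.0090 to 0.173 over 8 mice (median 0.076), beside a median of 0.068 for libraries that share only a number across diets. Members carry no p for diet, and Atp6v0d2 and the second Acp5 entry none at all; the lean tissue test planned for Atp6v0d2 is left out because its lean values entered the choice of members. Per list, up to 4 called entries with the largest change were named; Lpl and the list genes given by counts alone were named after their values were seen. Alternatives were DESeq2 1.42.0, other size factors, no filter, counts summed per gene, the block, the libraries of 1 tissue, each mouse left out, and the shallowest libraries left out, the last added after seeing the data. Protein sequences were not used here. The values of 1 listed gene are not reported here.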

Additional observations from a re-analysis of the deposited data

Results flagged for a closer look

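In each group, the highest and lowest of the 4 libraries were compared with the others by Dixon's gap ratio for the 5 member transcripts past the filter on low values, which made 20 groups, of which chance flags about 1 in 20. VAT of obese mouse 4 lay apart at 55.8 CPM for the curated Atp6v0d2 transcript and at 419 CPM for Ctsk. The first Acp5 transcript lay apart in SAT of lean mouse 3 at 5.81 CPM. The second Acp5 transcript lay apart in VAT of lean mouse 1 at 3.20 CPM, in the library with the fewest counts. The diet response of Ctsk differed between the tissues, by 1.63 on the log2 scale, by the test of the difference itself (adjusted p = 0.00677 by edgeR).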

How the results depend on the processing

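Of 349 member values under the alternatives, 336 kept their side of the threshold or, where untested, moved by less than the spread between replicates. No called value changed sign, but the untested difference of responses of the predicted Atp6v0d2 transcript, at 0.06, took the other sign in 4 alternatives, down to -0.33. The count of pathway list transcripts called in SAT, 17, ran from 7 to 18 when single mice were left out, and that in VAT, 21, from 14 to 21. In obese mice, the tissue comparison called 1 tested member instead of 0 with counts summed per gene (Acp5, a sum that includes its untested transcript) and with no filter on low counts (Ctsk), and ran from 0 to 1 without single mice, Ctsk being added without obese mouse 4. With no replicate block, the difference of responses called 0 instead of 1, with Ctsk at 1.96 (adjusted p = 0.0501 by edgeR). The diet fits with the replicate block called 19 list transcripts in SAT and 22 in VAT, and the block changed no other call of a tested member. Without obese mouse 1, the SAT difference of the second Acp5 transcript was -2.83. Levels under about 1.92 CPM are within 3 counts of 0 in the shallowest library.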
